A study of Mus musculus with 3 samples.

Results

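The positions described here are the low-count positions of dense 3′ UTR clusters. Crosslinks were recovered with an antibody against Brf1/2 from mouse thymocytes, and these positions had few at the base itself but more close by. They were chosen by their measured values: a listed count of 1 or 2, together with an extended value of at least 10. The extended value is the sum of all listed counts within 15 nt on the same strand of the same gene and segment. The rule took 6090 of 43898 positions in the 3′ UTRs of protein-coding genes (13.9%), out of 462392 positions in all. These members lay in 720 genes. Their counts and extended values are therefore given as a description, with no test.

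Individual-nucleotide crosslinking and immunoprecipitation (iCLIP) records the base at which reverse transcription stopped next to a crosslinked protein. Whole thymocytes from the thymus of C57BL/6JBabr mice, labelled as total naive thymocytes, received ultraviolet light at 300 mJ/cm2, and an antibody against Brf1/2 served for the pulldown. There were 3 libraries: 2 from WT cells, made in independent experiments, and 1 from DCKO cells, which lack Zfp36l1 and Zfp36l2 by conditional knockout. The sources used here do not give the promoter that drove the deletion, its completeness or the age of the mice. The deposited positions form 1 pooled list with a summed count of 814493 and no column per library. The sources used here do not say which libraries entered it, so no value below has a replicate error, WT and DCKO could not be compared, and depth per library is unknown.

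ZFP36L1 belongs to a family of zinc finger proteins that bind AU-rich elements in 3′ UTRs and bring deadenylases to the mRNA, which shortens its life. The core of the element is written TATTTA in DNA letters, and longer elements hold overlapping copies. In thymocytes the family is known for restraining the cell cycle and the DNA damage response while antigen receptor genes are rearranged. Ultraviolet crosslinking favours uridine, which the reference writes as thymidine, and reads from repeated sequence are hard to place.

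The sequences at these clusters were of several kinds, and a few of each are shown because the results turn on the difference between them. Each is 30 nt of GRCm38, 5′ to 3′ on the strand of the mRNA, with a member at base 15. The first set shows members beside the AU-rich core, in capitals. The windows of Nr4a1, Tnf, Top2a, Mcl1, Zfp36l2 and Cd4 were chosen, after values were seen, on the member nearest to a core.
Zfp36 (chr7:28376925-28376954, minus strand): agattttatagTATTTAtatatattgggtc
Zfp36l2 (chr17:84184914-84184943, minus strand): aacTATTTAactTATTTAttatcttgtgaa
Tnf (chr17:35199671-35199700, minus strand): tTATTTATTTAtTATTTATTTAtttgctta
Nr4a1 (chr15:101274742-101274771, plus strand): ttttctgattaataTATTTAatatattgaa
Thy1 (chr9:44047684-44047713, plus strand): tactctgTATTTAttccagggctgcttctg
Top2a (chr11:98993001-98993030, minus strand): tgtcttttgtaaaTATTTAatatgtctgtc
Mcl1 (chr3:95662602-95662631, plus strand): tcatagtttgctTATTTAtgtttaactctt
Cd4 (chr6:124866014-124866043, minus strand): atcagctTATTTAttcttcgctgctgcctt

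The next set shows members inside or beside thymidine tracts, with runs of 5 or more thymidines in capitals. In the windows of Pfn1 and Myb, base 15 lies between such runs. The clusters of Myb, Dnmt1 and Csnk2a1 held no count above 2.
Ywhaz (chr15:36771917-36771946, minus strand): tcTTTTTTTTTTTTTTTaaagTTTTTTgtt
Cd3e (chr9:44999135-44999164, minus strand): TTTTTctttcTTTTTaggttttctttcttt
Pfn1 (chr11:70651880-70651909, minus strand): TTTTTgTTTTTTggtcTTTTTTTTTTTTTT
Myb (chr10:21125262-21125291, minus strand): TTTTTgTTTTTTaggaTTTTTTTTTTTTgt
Dnmt1 (chr9:20907336-20907365, minus strand): gaattttaaggTTTTTTTTTTTgtttggtt
Csnk2a1 (chr2:152279264-152279293, plus strand): tttctttcTTTTTTTTTTTTTTTTTTTTTT

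The last set shows members in alternating thymidine and guanosine, in capitals, followed by windows of Sla and Smc2 that held none of these patterns.
Smco4 (chr9:15545004-15545033, plus strand): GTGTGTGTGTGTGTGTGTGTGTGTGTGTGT
Luc7l2 (chr6:38604440-38604469, plus strand): TGTGTGTGTGTGTGTGTGTGTccttgtgtc
Ptprc (chr1:138064263-138064292, minus strand): gagggtgtcTGTGTGTGTGagagtgtgttt
Sla (chr15:66781534-66781563, minus strand): gttttgttttattctataaggaagctggtt
Smc2 (chr4:52488154-52488183, plus strand): tatttccttgtatgcctttctgttttgttt

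Of the members, 1960 had a count of 1 and 4130 a count of 2. Their extended values ran from 10 to 582, with quartiles of 12, 17 and 28. A member had between 2 and 29 listed positions in the 31 nt centred on it, itself included, with a median of 8. Just outside the rule lay 724 positions of the same counts with an extended value of 9, and just inside it 613 members with a value of 10. TATTTA stood within 20 nt of 23.3% of the former and 26.6% of the latter. A further 714 positions reached an extended value of 10 but had a count of 3, and 33.8% of these had the core.

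Most of these surroundings had no single position that held most of the counts, but few were level. The highest count within 15 nt was at least 50% of the extended value at 251 members (4.12%, 95% Wilson interval 3.65 to 4.65). Its median share was 22.7%. Nevertheless, the highest count within 15 nt was 3 to 9 at 4324 members (71.0%) and 10 or more at 681 members (11.2%). No count of 3 or more lay within 15 nt of 1085 members (17.8%, 16.9 to 18.8), in 225 genes. The label of clusters without a dominant position thus held for the share of the counts, but 82.2% of members had a neighbour with a count of 3 or more. Where a single position had the highest count, of 3 or more, it lay upstream of 2186 members and downstream of 1882 (46.3%, 44.7 to 47.8), and within 5 nt of 43.0% of them.

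**Figure D1:**
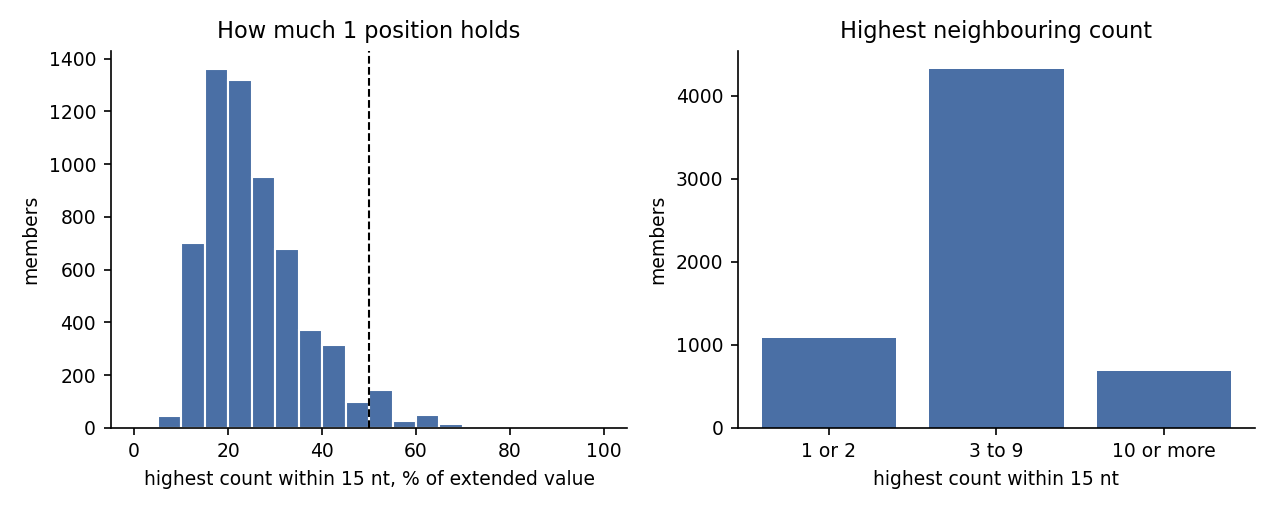
The left histogram gives the number of members by the highest count within 15 nt as a percentage of the extended value, with a dashed line at 50%, and the right bars give the number of members by that highest count. Most members lie below the line (251 are at or above it), and 1085 members have no neighbour with a count above 2.

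Joining members of 1 strand across gaps of at most 15 nt gave 1105 clusters. A cluster held 1 to 29 members, with quartiles of 3, 5 and 7, and spanned 1 to 115 nt, with quartiles of 8, 14 and 22. Single members made up 125 clusters, and the 156 clusters of 10 or more members held 2028 members (33.3%). Neighbouring members in a cluster were a median of 2 nt apart, and 33.1% of the 4985 gaps were between adjacent bases. In 168 clusters, in 162 genes, no count of 3 or more lay within 15 nt of any member; these are called flat clusters below.

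The cluster with the most members was in Bcl11b, which encodes a transcription factor of T lineage commitment. It spanned 115 nt (chr12:107910598-107910712, minus strand), near the 3′ end of the 3′ UTR, and held 29 members among 62 listed positions with a summed count of 242. The highest count in that span was 19, or 7.85% of that sum. A count of 20 lay just outside the span, within 15 nt of a member. The cluster of Cxcr4, a chemokine receptor of thymocytes, had a like sum of 245 over 48 positions in 92 nt (chr1:128588647-128588738, minus strand), but a single position held 75 of it. The cluster held 22 members.

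The single cluster of Nr4a1, an immediate early nuclear receptor gene of stimulated thymocytes, was the most even of the 12 clusters with the most members (1 a gene): its highest count was 5.88% of its sum. It held 26 members in 61 nt (chr15:101274705-101274765, plus strand), with no count above 4 in a sum of 68. Members made up 58.9% of all 3′ UTR counts listed for the gene. The widest Zfp36 cluster held 25 members in 88 nt (chr7:28376896-28376983, minus strand), with 3 copies of TATTTA in and around it and a highest count of 8.

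Of the 6 flat clusters with the most members, 5 spanned 27 to 40 nt and 1, in Csnk2a1, 19 nt. In Myb, which encodes a transcription factor of early thymocytes, 15 members in 32 nt (chr10:21125262-21125293, minus strand) summed to 21, with 9 counts of 1 and 6 counts of 2. In Csnk2a1, encoding a catalytic subunit of casein kinase, 12 members in 19 nt (chr2:152279269-152279287, plus strand) summed to 14, all of them at thymidines, in or beside a run of 27. In Dnmt1, the maintenance DNA methyltransferase gene, 13 members summed to 17, and these made up 89.5% of the 3′ UTR counts listed for the gene. The flat cluster of Smco4 lay in alternating thymidine and guanosine and summed to 24 over 13 members, 11 of them with a count of 2.

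**Figure D2:**
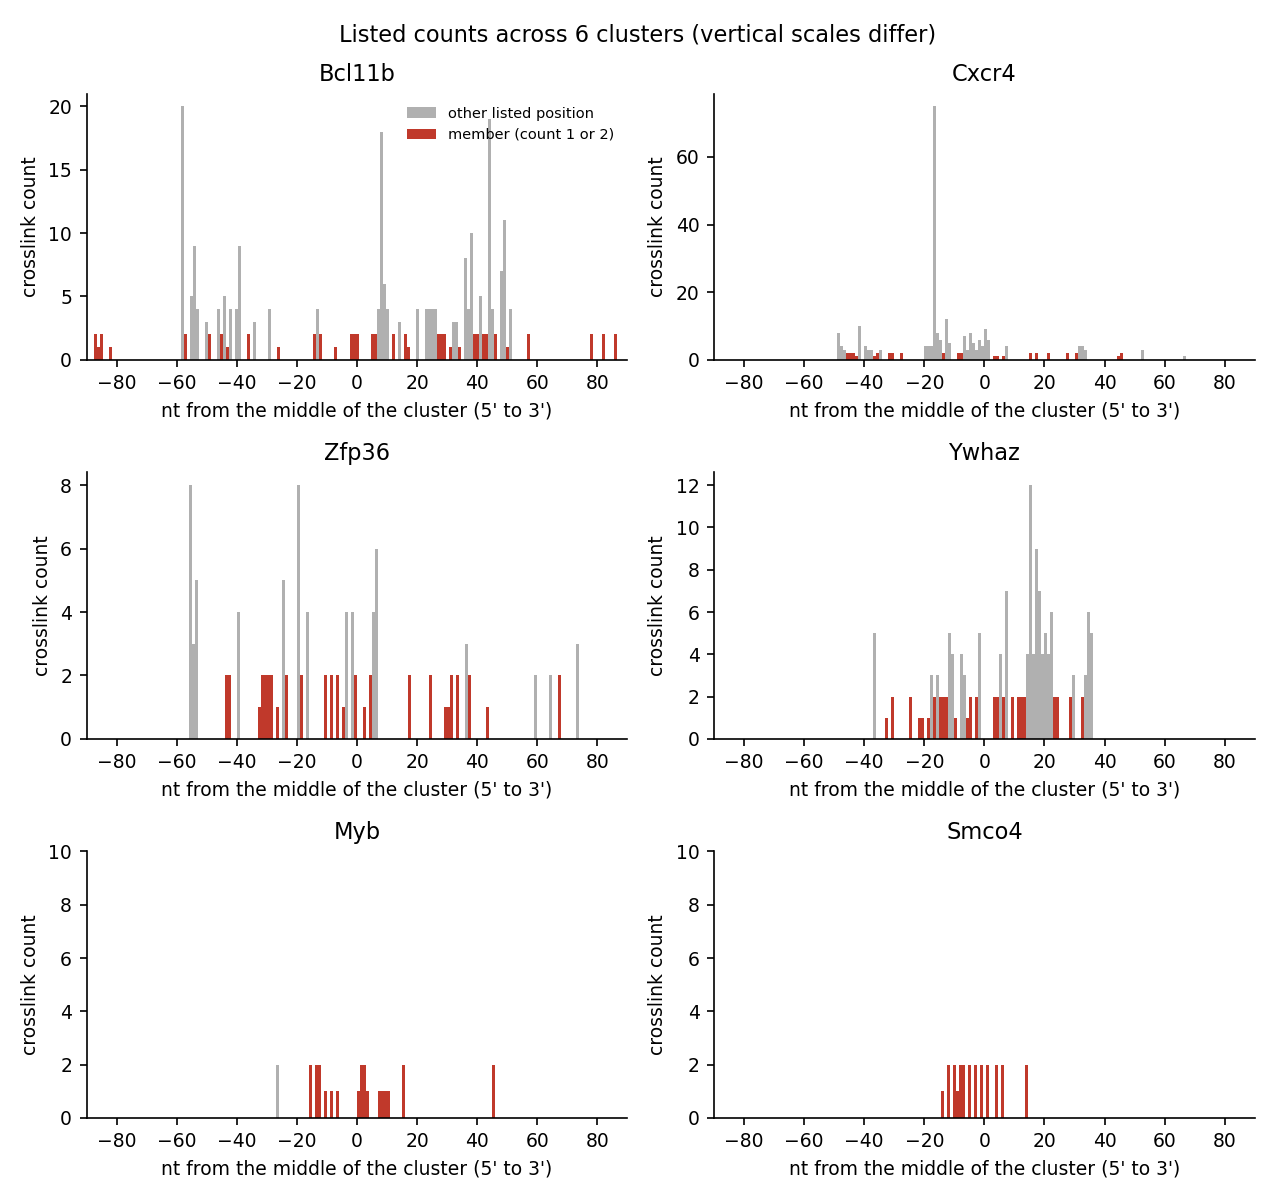
Each panel plots the listed count per base (vertical axis, scales differ) against the distance in nt from the middle of a cluster, 5′ to 3′, for Bcl11b, Cxcr4, Zfp36, Ywhaz, Myb and Smco4, with members in red and other listed positions in grey. Cxcr4 shows 1 position with a count of 75, Bcl11b several moderate counts, and Myb and Smco4 no count above 2.

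Around the members, the AU-rich core and thymidine runs were both frequent and seldom occurred together. TATTTA lay wholly within 20 nt of 31.6% of members (30.5 to 32.8), against 2.93% of all 41-nt windows over the 3′ UTRs of the same genes, which is 10.8 times as often. A run of 6 thymidines (TTTTTT) lay within 20 nt of 37.8% (36.6 to 39.0), against 5.51% of windows, or 6.87 times as often. Both motifs were found at 5.85% of members and neither at 36.4%. The motifs were searched on the strand of the mRNA, and the intervals cover counting error only, since members of 1 cluster share most of their window.

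The positions with a count of 10 or more, of which there were 318 in 92 genes, had the core more often and the thymidine run less often than the members. TATTTA was within 20 nt of 50.6% of them (45.2 to 56.1), and TTTTTT of 30.5% (25.7 to 35.8). The 3933 positions with a count of 3 to 9, at any extended value, had the core about as often as members, at 33.5% (32.1 to 35.0). TTTTTT was near 28.9% of them (27.5 to 30.3). It was near 44.4% of the 714 with a count of 3 and an extended value of at least 10, above the members. The 33557 positions with a count of 1 or 2 and a lower extended value had both less often, at 10.04% (9.73 to 10.4) and 15.4% (15.03 to 15.8). All these groups are defined by the counts themselves and members of 1 cluster share sequence, so these intervals are no test between the groups. A thymidine was at the position itself in 65.4% of members, 69.2% of strong positions and 55.3% of the other low counts, against 31.3% of bases of the 3′ UTRs.

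Longer forms of the element followed the same order. TATTTAT lay near 24.1% of members, 46.5% of strong positions and 5.92% of the other low counts. The nonamer TTATTTATT lay near 9.36%, 16.4% and 1.58%. Positions with a count of 3 to 9 were close to members in both forms, at 25.8% and 10.2%. Among members, TATTTA went from 25.6% of those with an extended value of 10 to 14 to 43.8% of those with 25 to 49, and was 37.5% at 50 or more, where only 66 genes contributed. TTTTTT was 36.5%, 37.9% and 43.8% in the same groups.

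Among members, TATTTA started at many offsets, and no single offset stood far above the others. The share of members with TATTTA starting at a given offset was highest at the member itself, at 1.97%. The strong positions had their highest share, 6.92%, where the core started 4 nt upstream, so that the position was base 5 of it, and a further 4.72% had it starting 4 nt downstream. In the other low counts no offset exceeded 0.614%. These shares are of all positions in a group, with or without a core. The core was within 20 nt of 31.6% of members, 50.6% of strong positions and 10.04% of the other low counts. The height of a share therefore also follows how often a core was near, and is not a measure of spacing alone. The rule also took every low count of a dense stretch and left out the higher counts. Members of the same cluster thus lie at different offsets from the same core, and a broad profile is largely fixed in advance. It cannot tell whether members keep a distance from the core, or whether they differ in this from strong positions.

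**Figure D3:**
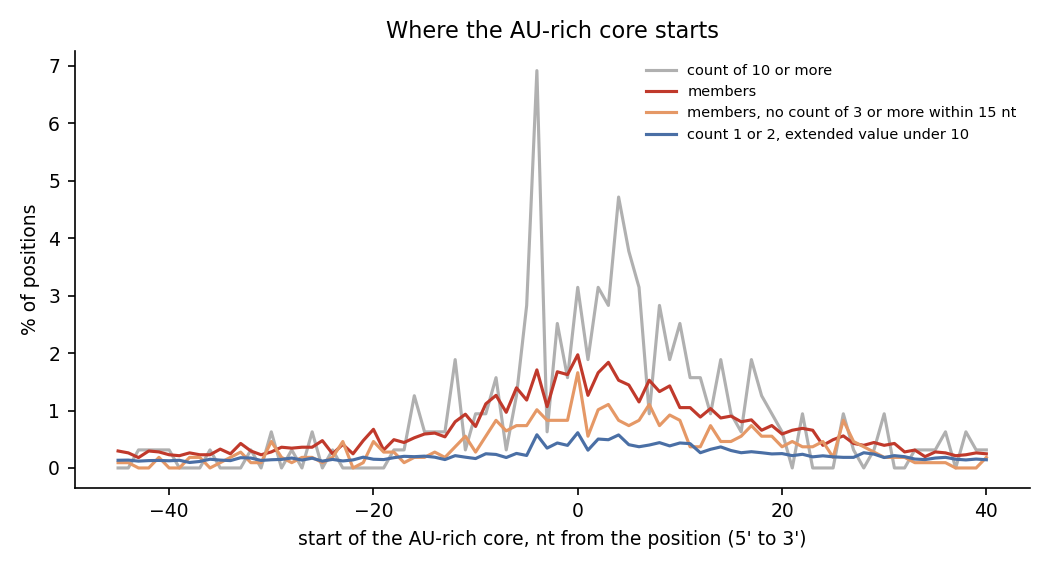
The percentage of all positions of a group at which TATTTA starts is plotted against the offset of its first base in nt (negative is upstream), for strong positions (grey), members (red), members with no count of 3 or more within 15 nt (orange) and other low counts (blue). The grey line has a narrow peak of 6.92% at an offset of -4, whereas the red line is broad and stays at or below 1.97%.

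The 2 motifs went opposite ways with the highest count within 15 nt. Members with no neighbour above 2 had TATTTA at 19.7% (17.5 to 22.2), members beside counts of 3 to 9 at 32.2% (30.8 to 33.6), and members beside a count of 10 or more at 47.1% (43.4 to 50.9). TTTTTT was at 49.2% (46.2 to 52.2), 37.2% (35.7 to 38.6) and 23.6% (20.6 to 27.0) in the same order. Without Rag1 and Bcl11b, the genes with the most members, the values were 20.2%, 33.7% and 50.9% for the core and 49.6%, 38.0% and 20.97% for the run. Counting each cluster once, the core was in 25% of the 168 flat clusters, 37.6% of 816 and 59.5% of the 121 beside a count of 10 or more. The run was in 42.3% (35.0 to 49.8), 32.6% (29.5 to 35.9) and 28.9% (21.6 to 37.6). This was a smaller fall than by member, and the last 2 intervals overlapped. Wider clusters cover more sequence.

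Soft-masked sequence, which the reference marks as repeated or of low complexity, moved with these values. It held 64.3% of members, 59.1% of strong positions, 33.5% of the other low counts and 17.6% of the 3′ UTR bases. By highest neighbour it held 72.1%, 64.3% and 52.4% of members. Outside it, TTTTTT was at 11.2% (8.14 to 15.3) of 303 members with no neighbour above 2, 7.31% of 1545 and 10.5% (7.61 to 14.3) of 324 beside a count of 10 or more, with no ordered change. Masking was read at the position itself, and it took in 2121 of the 2302 members near TTTTTT. Leaving out masked positions thus removed most runs by construction. The values outside cannot tell whether runs follow the highest neighbour. TATTTA outside soft-masked sequence kept its order, at 23.1% (18.7 to 28.2), 37.0% (34.6 to 39.4) and 46.6% (41.2 to 52.04). The part of read placement in repeats in the excess of thymidine runs was not tested.

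**Figure D4:**
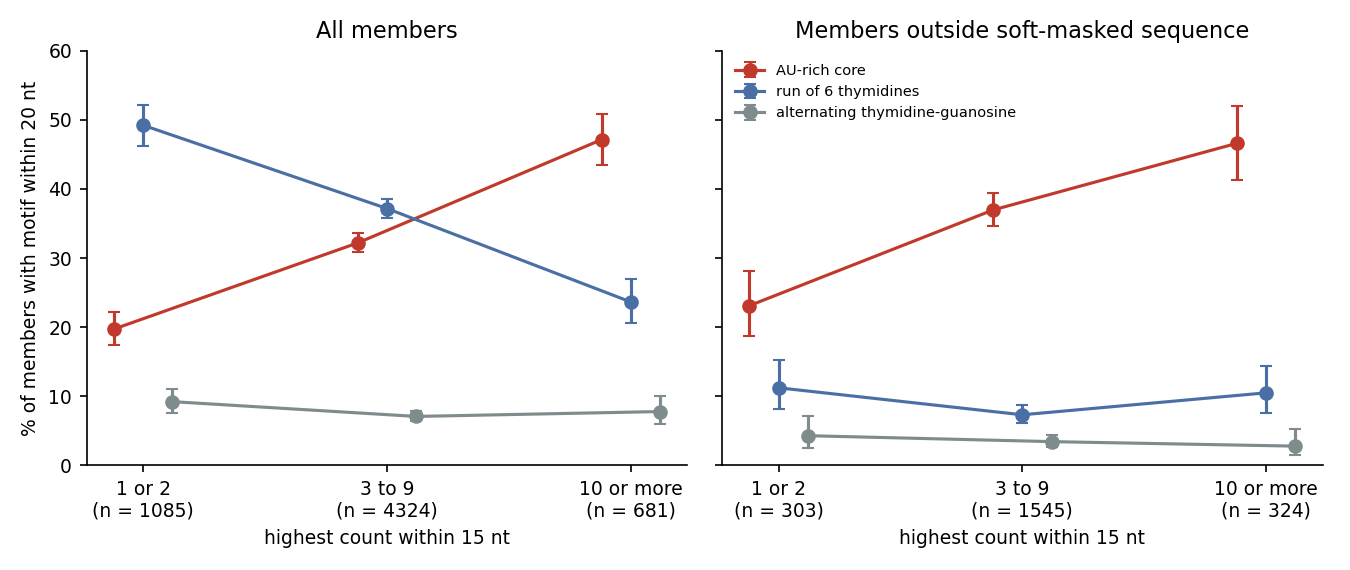
The percentage of members with each motif within 20 nt is plotted with its 95% Wilson interval against the highest count within 15 nt, for all members (left) and those outside soft-masked sequence (right). The AU-rich core goes from 19.7% to 47.1% on the left and from 23.1% to 46.6% on the right, whereas the run of 6 thymidines goes from 49.2% to 23.6% on the left only.

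Another pattern, TGTGTG, was added after the flat clusters had been seen. It lay within 20 nt of 7.54% of members (6.90 to 8.23), 8.81% of strong positions and 5.66% of the other low counts, against 3.05% of windows. Of the clusters, 421 (38.1%) had TATTTA near a member, 372 (33.7%) had TTTTTT, 88 had both, and 54 had TGTGTG without the others. None of the 3 patterns was near a member of 346 clusters (31.3%, 28.6 to 34.1), such as the larger of the 2 in Sla and that of Smc2. By gene, 349 of the 720 had the core near some member, 305 the thymidine run, 114 both and 180 neither.

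Over all members, counts of 1 and of 2 differed in the motifs nearby. The sources used here do not say how counts were added over libraries or how duplicates were handled, so what separates a count of 2 from a count of 1 is unknown. Of members with a count of 1, 24.03% had TATTTA and 50.3% TTTTTT nearby, and of those with a count of 2, 35.3% and 31.9%. Outside soft-masked sequence the values were close, at 33.8% and 10.2% for 551 counts of 1 and 37.4% and 7.71% for 1621 counts of 2. For TTTTTT this closeness is partly fixed in advance, since most members near a run were soft-masked. Both counts occurred together in 698 clusters, and there a thymidine was at 66.02% of the 1860 counts of 1 and 65.8% of the 3053 counts of 2. In these clusters the share near TTTTTT was equal for both counts in 614, higher at counts of 1 in 48 and higher at counts of 2 in 36. The share near TATTTA was equal in 584, higher at counts of 1 in 64 and higher at counts of 2 in 50. Members of 1 cluster share most of their window, so equal motif shares there are largely fixed in advance. They cannot tell whether the 2 counts differ within a cluster.

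The same values in introns chose 13997 positions in 1352 genes, 90% of them soft-masked. TATTTA was near 39.2% of these (38.4 to 40) and TTTTTT near 42.9% (42.06 to 43.7), both above the members in 3′ UTRs. Outside soft-masked sequence the order of the core was turned, at 20.01% (18 to 22.2) of 1399 intron positions against 36.5% (34.5 to 38.5) of 2172 members in 3′ UTRs. TTTTTT there was at 10.5% and 8.33%.

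Among genes with any listed 3′ UTR position, 12.5% held a member (720 of 5752), and every count of genes below can be set beside that share. No measure of transcript abundance was used. Members per gene ranged from 1, in 40 genes, to 157, with a median of 6, and the 20 highest genes held 16.8% of members. In 526 genes all members lay in 1 cluster. Members of a cluster share sequence, so a gene's share near a motif often rests on few separate sites. Of the 92 genes with a count of 10 or more, 91 also held a member (98.9%), and these were 12.6% of the member genes. The rule fixes most of this overlap, since a count of 10 lifts every listed position within 15 nt of it to an extended value of 10.

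T lineage transcription factors held a member in 17 of the 29 listed genes (58.6%), beside 43.5% for the abundant housekeeping mRNAs. The lists were written with earlier results of these data known. Bcl11b had 147 members in 22 clusters, 69 of them beside a count of 10 or more, and TATTTA was near 10.9% and TTTTTT near 38.8% of them. Satb1, a chromatin organiser, had 66 members in 13 clusters, with 12.1% and 34.8%. Cux1, a CUT homeobox gene, and Sox4, an HMG-box gene, had 43 and 34 members, with the core near 34.9% and 29.4%. All 21 members of Myb were beside a thymidine run and none beside a core. In the list as a whole 18.4% of 477 members had the core, below the 31.6% of all members. Bcl11b and Satb1 had the most members and so weighed most in that share. The genes differed, with 16 of 21 members near a core in Notch1 and none of 26 in Lef1.

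Of the genes of V(D)J recombination, Rag1 supplied 157 of 174 members and seldom had the core nearby. Rag1, a subunit of the recombinase that cuts antigen receptor genes, had the most members of any gene, in 25 clusters, with extended values up to 582. Only 2 of them (1.27%) had TATTTA within 20 nt and 26 (16.6%) had TTTTTT. Lig4, the ligase that seals the breaks, had 9 members, 5 of them near a core, and Dntt, which adds untemplated nucleotides, had 5 with neither motif. Rag2 had 3 members, and 4 of the 8 listed genes held one.

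In signalling downstream of the T cell receptor, 13 of 23 genes held a member. Ptprc, encoding the phosphatase CD45, had 40 members, 18 of them near TGTGTG, none near TTTTTT and 17.5% near the core. Cd3e, a chain of the receptor complex, had 31, of which 80.6% were near a thymidine run. Nfkbia, the inhibitor of NF-kappaB, had 25 members in 5 clusters, with 16% near the core and 28% near the run. Of 18 thymocyte surface receptor genes 5 held a member. Cxcr4 had 60, with no TATTTA near any, Cd28, a costimulatory receptor, 25, Thy1 20, Cd8a 15 and Cd4 13. In Thy1, whose members formed 1 cluster of 71 nt, 90% of members had the core nearby and none a thymidine run.

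The mRNAs of the ZFP36 family, whose proteins bind such elements, held dense low counts as well. Zfp36l1 had 31 members in 5 clusters, with TATTTA near 38.7% and TGTGTG near 11 of them. Zfp36 had 29 members in 3 clusters, 58.6% near the core. Zfp36l2 had 19 members in 3 clusters, 63.2% near the core; 12 of them lay in 31 nt (chr17:84184923-84184953, minus strand) with a summed count of 83 and a highest count of 24. Celf1, which binds GU-rich elements, had 23 members, of which 60.9% were near a thymidine run and 13.04% near the core. Of the 18 genes for AU-rich element and stem-loop binding proteins, 9 held a member, Elavl1, Pum2 and Rc3h1 among them.

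Genes of deadenylation and decay held members in 8 of 22 cases. Ago2, the microRNA effector, had 23 with the core near 65.2%, and Tnrc6b, its partner in silencing, had 20 with none near the core and 90% near a thymidine run. Btg2, an antiproliferative factor that recruits deadenylases, had 21 in 5 clusters of at most 15 nt.

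AU-rich cytokine and immediate early genes held a member in 7 of 20 cases. Of their 63 members, 57.1% had the core and 7.94% the thymidine run. The genes were listed as AU-rich, so a high share of the core was built into the list. Nr4a1 supplied 13 and Tnf 11 of the members near a core. All 11 members of Tnf, the cytokine gene whose element has overlapping cores, were near a core, and the larger of its 2 clusters held 8 members in 24 nt with a summed count of 22 and no count above 4. The 26 members of Nr4a1 were near a core in 50% of cases. The 9 members of Dusp2, a phosphatase gene of MAP kinase signalling, all had a count of 2, and none was near a core.

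Regulators of cell division and death were mixed. Of 25 cell cycle genes 7 held a member. Cdkn1b, encoding the inhibitor p27, had 39 in 6 clusters, 17.9% near the core. Top2a, a topoisomerase of dividing cells, had 13 in 2 clusters, 84.6% near the core. Ccnd3, a D-type cyclin, had 14 in 2 clusters with neither motif and a thymidine at 28.6% of positions. Of 18 apoptosis genes 8 held a member. Mcl1, a survival factor, and Cflar, an inhibitor of caspase activation, had 21 and 16 members with the core near 85.7% and 81.2%. Pdcd4 had 19 with the core near none and a thymidine run near 94.7%. In the DNA damage response 2 of 20 genes held a member. All 10 members of Mdm2, the ligase that degrades p53, were near the core, but they lay in 2 clusters. All 5 of Hipk1 were near a thymidine run, in 1 cluster of 10 nt.

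Abundant housekeeping mRNAs held members in 10 of 23 genes, and 5.73% of their 192 members had the core and 59.9% the thymidine run. Actb, cytoplasmic actin, had 43 members and Pfn1, profilin, had 25, with no core near any of them and a run near 53.5% and 80%. Ddx5, an RNA helicase, had 42, of which 61.9% were near a run, and Ywhaz, a 14-3-3 protein, had 28, with 82.1% near a run and 35.7% near a core.

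Other genes among those with the most members were Edem1, of endoplasmic reticulum protein degradation, with 69 members, 21 of them with no neighbour above 2, and Kmt2d, a histone methyltransferase, with 39. Atp13a3, a transport ATPase, and Med13, of the Mediator kinase module, had 32 each, with the core near 84.4% and 50%. Gse1 had 32, Ppp1cb, a phosphatase subunit, 29, and Nabp1, which binds single-stranded DNA, 28.

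Few markers of other cells had a listed 3′ UTR position, so their counts say little beside the share of 12.5% over all genes. None of the markers of B cells (2 of 8 listed), myeloid cells (4 of 10) and erythroid cells (1 of 8) held a member, and of 6 listed markers of thymic epithelium and stroma Pecam1 had 3 members. None of the 5 listed ribosomal protein genes held a member. Among markers of the labelled thymocytes, Cd4, Cd8a, Thy1, Cxcr4 and Cd28 held members, and the other listed genes of the 18 surface receptors did not.

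**Figure D5:**
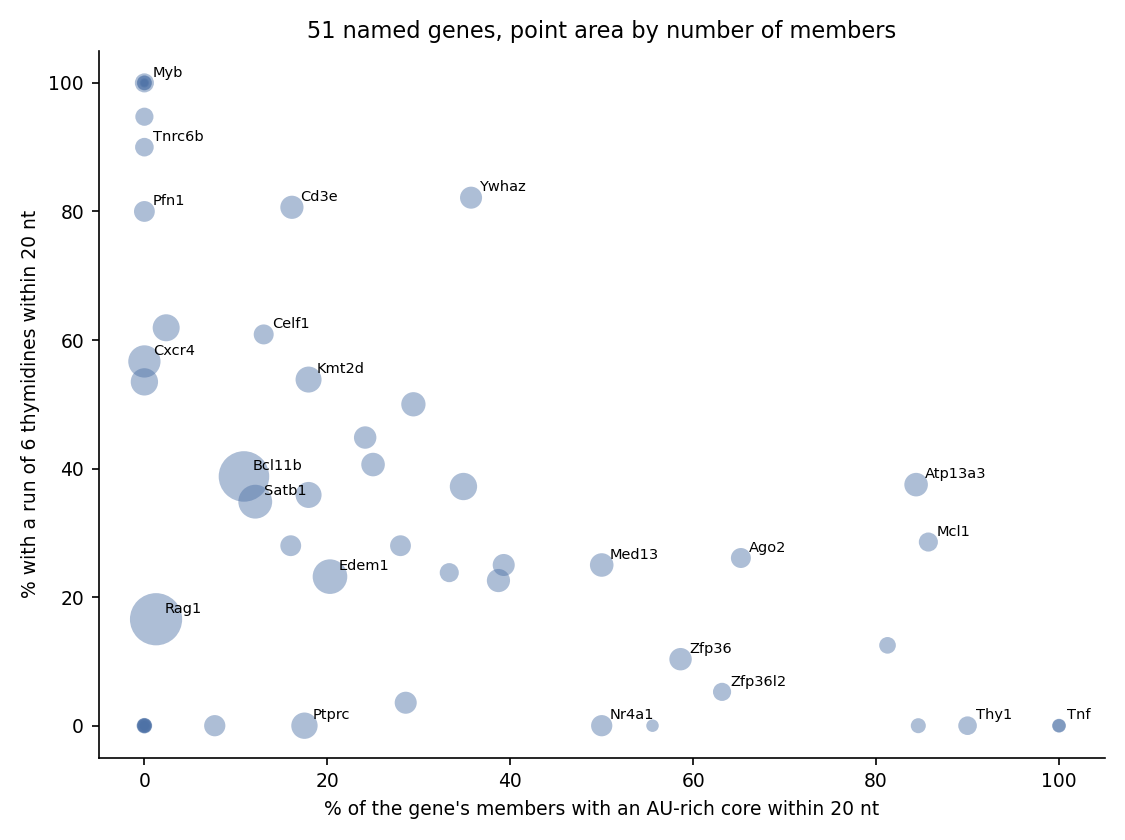
Each point is 1 of the 51 named genes, with the percentage of its members within 20 nt of an AU-rich core on the horizontal axis, the percentage within 20 nt of a run of 6 thymidines on the vertical axis and an area in proportion to its number of members. Tnf and Thy1 lie at the lower right (core near 100% and 90% of members), Myb and Pfn1 at the upper left, and Rag1, with 157 members, near the origin.

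The members were spread along the 3′ UTR, with 25.3% in its first 20% and 21.9% in its last 20%. Their median place was 45.4% of the way from the stop codon (quartiles 19.7% and 76.8%), at a median of 755 nt from the stop codon and 915 nt from the end. The strong positions had a median of 21.2% (quartiles 13.05% and 42.2%), but with each gene counted once the medians were 44.7% for members and 39.3% for strong positions. Over all listed 3′ UTR positions the median was 46.3%. Of the named genes, Nabp1 had its members early, at a median of 5.52%, and Ddx5 and Nr4a1 late, at 91.0% and 90.04%. The value for Ddx5 leaves out its largest cluster, with 21 of its 42 members, which had no place in an annotated 3′ UTR of the gene. By annotation, 97.0% of members lay in a 3′ UTR that GENCODE annotates for the named gene, 98 (1.61%) overlapped the 3′ UTR of a gene on the opposite strand, and 82 that of another gene on the same strand.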

How the data were processed

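The data are iCLIP positions from thymocytes, deposited as 1 pooled list. The submitters' processing notes name Bowtie and GRCm38; the sources used here do not say how duplicates and multiply placed reads were treated. The deposited value of a position is a whole number signed by strand and is used here as a score, whose size is called a count; the deposited extended value, also a score, equalled the sum of counts within 15 nt at 100% of positions. The deposited p-value and FDR columns were not used.

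Positions count from 0 in the list (segment labels at coding exon edges were right at 2092 of 2177 positions read that way, and at 378 of 1454 read from 1) and are printed from 1. Sequence came from RefSeq's GRCm38.p6 FASTA and 3′ UTRs from GENCODE M21, taking the gene's longest that held the position for places. Of 720 gene names 693 matched a symbol, 17 were updated and 10 had no match. The scripts ran on python 3.11.15, pandas 2.3.3, numpy 2.4.6 and pysam 0.24.0, and were tested on simulated data.

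A motif had to lie wholly within 20 nt of the position. Windows for comparison were all those over 1946199 bases of 3′ UTR of the member genes. Shares carry 95% Wilson intervals; with no replicates, no test between samples was made. Named are the 20 genes with the most members, the ZFP36 family, up to 3 genes of each of 16 lists, and the genes of the 12 largest clusters. The largest clusters without a position at 50% were already among these 12, so the 6 largest flat clusters were added after values were seen, and further genes are given only with a list they belong to or, for Lars2, Inpp4a and Notch3, by choice after values were seen. The members and lists were chosen with earlier results of these data known.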

Additional observations from a re-analysis of the deposited data

How the results depend on the processing

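With an extended value of at least 15 or 20, members numbered 3754 and 2587. Joining at 5 nt gave 2108 clusters, and an extended value of 15 gave 616. The share of members with a dominant neighbour, 4.12% in the report, was 21.7% where 33.3% of the extended value sufficed, 82.2% where a count of 3 and 46.3% where a count of 5 did, 11.6% with each cluster once, and 6.45% and 2.88% at extended values of 8 and 15. The share near TATTTA, 31.6%, was 19.7% and 43.5% with windows of 10 and 50 nt, 38.1% with each cluster and 36.6% with each gene once, 19.7% where no count of 3 was near, 36.5% outside soft-masked sequence, and 29.4% and 35.4% at extended values of 8 and 15. Other motifs gave 24.1% (TATTTAT), 9.36% (TTATTTATT), 39.8% (ATTTA) and 37.8% (TTTTTT). The thymidine share was 60% with 1 position per cluster, and the median place 52.6% in the shortest annotated 3′ UTR. For members with no neighbour above 2, TTTTTT was 11.2% outside soft-masked sequence, 42.3% per cluster and 41.7% per gene, and TATTTA 23.1% outside it and 25% per cluster. Beside a count of 10 or more, TTTTTT was 10.5%, 28.9% and 17.7% in that order, and TATTTA 50.9% without Rag1 and Bcl11b, 59.5% per cluster and 53.9% per gene. Each setting changes, by construction, either the positions counted or what is measured at them.

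No paired analysis was possible because the list has no column per library; for the same reason leaving out each library was not run. Members of 1 cluster share reads and sequence, so intervals are too narrow as a measure of spread between clusters.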

Other observations

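In 3′ UTRs, counts of 2, 4, 6 and 8 were each more frequent than the odd count below them, whereas counts of 10 and 12 were not. Over all 3′ UTR positions, 22502 had a count of 2 and 17145 a count of 1, 1537 had a count of 4 and 1332 a count of 3, 380 had a count of 6 and 337 a count of 5, and 147 had a count of 8 and 134 a count of 7. Counts of 10 (57) and 12 (32) were rarer than counts of 9 (66) and 11 (43). Among positions with an extended value of 10 or more, counts of 4 numbered 1050 and counts of 3 numbered 714. In introns the order was turned at the low end, with 141467 counts of 2 and 163825 counts of 1.

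Runs of at least 5 adjacent members with the same count occurred 14 times and held 76 members. The longest was in the 3′ UTR of Inpp4a, a phosphoinositide phosphatase gene, where 8 adjacent bases each had a count of 1 (chr1:37409590-37409597, plus strand), 7 of them thymidines. Notch3 had 7 adjacent counts of 2 (chr17:32121651-32121657, minus strand).

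Lars2, the mitochondrial leucyl-tRNA synthetase gene, held 24 members in 3 clusters, with neither TATTTA nor TTTTTT near any and none soft-masked. Without it, 31.8% of the remaining 6066 members had the core and 37.9% the thymidine run.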
